A study of Mus musculus with 27 samples.

Results

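Among 11 lymphomas of the hv and co mouse lines, 7 were set against 4 on the basis of their own RNA profiles, across line and site. The subset of 7 held Lung.hv.T5, Lung.hv.T14, Lung.hv.T16, PLN.hv.T15, PLN.hv.T8, Lung.co.T30 and Lung.co.T34, and the subset of 4 held Lung.hv.T1, Lung.hv.T7, Lung.co.T9 and PLN.co.T2. They are 11 of 27 samples. The others are 7 lymphomas of the cr line (3 from lung and 4 from mesenteric lymph node, MLN), 1 lung lymphoma titled hv but described as CO (Lung.hv.T39), and 8 control samples. The lymphomas were B220-purified malignant B cells of mice labelled c-myc Igh transgenic. The controls were B220-purified non-malignant splenic B cells, 1 untreated sample and 1 stimulated with lipopolysaccharide (LPS) for 2 days from each of the genotypes wt, cr, co and hv, of which all but wt are labelled c-myc Igh transgenic. Levels are TPM, a length- and depth-corrected share of the transcripts of a library, summed per gene.

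The labels do not say what hv, cr and co stand for, which promoter or enhancer drives the transgene in each line, how old the mice were and whether each lymphoma came from a separate mouse. Any spread between samples may therefore in part be shared or technical. The split was chosen from the expression values of these libraries. Every difference between the subsets below is a description with no test. The subset of 7 held 5 hv and 2 co lymphomas, 5 from lung and 2 from peripheral lymph node (PLN), and the subset of 4 held 2 hv and 2 co lymphomas, 3 from lung and 1 from PLN.

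B lymphocytes change their gene programme as they develop, rest, become activated and turn into antibody-secreting cells. NF-kappaB is a family of transcription factors held inactive in the cytoplasm until signals through the antigen receptor, CD40, Toll-like receptors or the BAFF receptor release them, and its target genes include its own subunits and regulators. Guanylate-binding proteins are GTPases of cell-autonomous defence that interferons induce in most cell types. MYC, the oncogene of the transgene, drives growth, ribosome production and cell division.

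The subsets differed mostly by genes that were higher in the subset of 7, such as Gbp2, Bcl3, Pld4 and Gpr183, while a few genes such as Igf2bp3 and Lgals9 were higher in the subset of 4. A gene is called parted here when every library of one subset lay above every library of the other and the mean log2(TPM + 1) differed by at least 1. Of 12044 genes with 1 TPM or more in at least 4 of the 11 lymphomas, 353 (2.93%) were parted and higher in the subset of 7, and 10 (0.0830%) were parted and higher in the subset of 4, 363 in all (3.01%). Without the condition on size, 626 genes (5.20%) lay higher in every library of the 7 and 21 (0.174%) in every library of the 4. Since the split was made on the same values, nothing is read from these shares.

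The balance of the count moved with the scaling. The median difference over all 12044 genes was 0.27 in favour of the subset of 7, with 8599 positive and 3445 negative differences. After each library was rescaled by the median of its gene ratios to the mean library, the median was -0.03, and 118 genes were parted and higher in the subset of 7 and 57 in the subset of 4. The share of parted genes higher in the subset of 7 was then 67.4%, against 97.2% with TPM as deposited. All 118 genes were among the 353, and all 10 genes of the other direction were among the 57.

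A pair of lymphomas, Lung.hv.T5 and Lung.hv.T14, sat uneasily in the subset of 7. Over the 1000 most variable genes of 19 lymphomas, Pearson's r across genes averaged 0.496 between libraries within the subset of 7, 0.493 within the subset of 4 and 0.366 between the subsets. The mean r of Lung.hv.T5 was 0.471 with the rest of the 7 and 0.517 with the 4, and that of Lung.hv.T14 was 0.425 and 0.595. Lung.hv.T14 was most like Lung.hv.T1 of the other subset (r = 0.80), and Lung.hv.T5 was most like Lung.cr.T16 (r = 0.76). The libraries share immunoglobulin and growth genes, and the 1000 genes were chosen by their variance in these same lymphomas. Genes are also not independent replicates, so these correlations are descriptions.

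Lung.hv.T14 and Lung.hv.T1 also shared their most abundant heavy chain variable gene, Ighv1-64 (97.7% and 99.7% of Ighv TPM), and their most abundant kappa variable gene, Igkv1-135 (83.2% and 80.1% of Igkv TPM). Kallisto divides reads between near-identical variable genes, so these assignments are uncertain. MLN.cr.T1 had Ighv1-64 as well (99.9%) but another leading kappa gene, Igkv19-93. Igkv1-135 also led in Lung.hv.T16 (74.8%), Lung.cr.T9 (52.4%) and Lung.cr.T16 (87.8%), each with another heavy chain gene. Ighv1-52 led in both Lung.co.T30 (26.7%) and Lung.co.T34 (99.2%), with different kappa genes. In the other lymphomas of the split the leading pair of heavy and kappa genes differed from library to library.

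**Figure D1:**
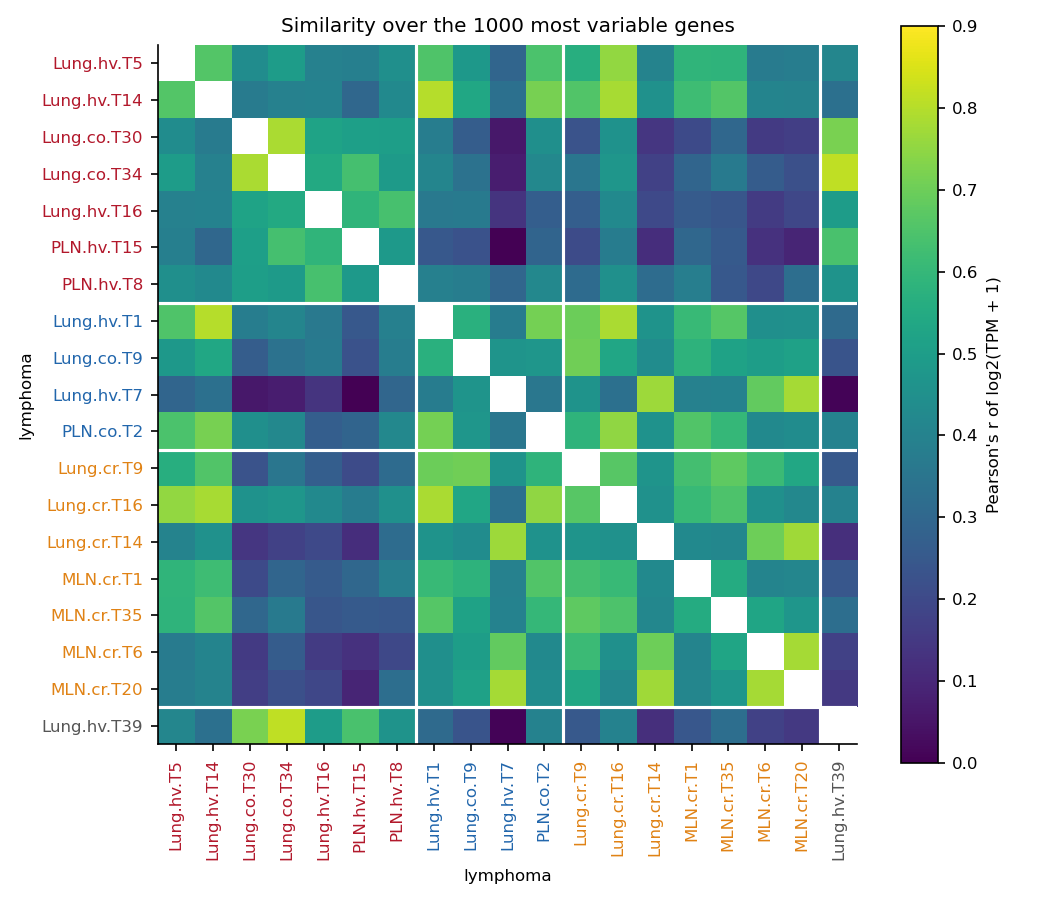
Pearson's r of log2(TPM + 1) over the 1000 most variable genes for each pair among 19 lymphomas (both axes), coloured from 0 to 0.9, with white lines between the subset of 7, the subset of 4, cr lymphomas and Lung.hv.T39. Lung.hv.T14 is closest to Lung.hv.T1 (0.80), and Lung.hv.T7 is closest to MLN.cr.T20 (0.78).

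Leaving both Lung.hv.T5 and Lung.hv.T14 out, an alternative chosen after seeing these values, gave 783 genes higher in the rest of the 7 and 124 higher in the subset of 4. Of the 353 genes 339 were among the 783. In 142 of the 783 both left-out lymphomas lay at or below the highest library of the subset of 4. Leaving out Lung.hv.T14 alone gave 582 genes higher, and leaving out PLN.hv.T8 alone gave 641. Lung.hv.T14 and PLN.hv.T8 were the lowest of the 7 in 107 and 108 of the 353 genes, and Lung.hv.T5 in 69.

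Among parted genes other than predicted genes and genes without a name, the largest difference was that of Gbp2 (ENSMUSG00000028270), an interferon-inducible guanylate-binding protein at chr3:142620602-142638008 on the plus strand of mm10. Gbp2 measured 10.9 TPM at the lowest, 68.6 at the median and 149 at the highest in the subset of 7. It measured 2.23 TPM in Lung.hv.T1, 2.57 in Lung.co.T9, 0.837 in Lung.hv.T7 and 2.61 in PLN.co.T2, a mean difference of 4.05 ± 0.60 (SE of the difference, n = 7 and 4) on the log2 scale. Lung.hv.T5 (10.9) and Lung.hv.T14 (11.2) were the low end of the subset of 7, and the subset of 4 lay well under them. In cr lymphomas Gbp2 lay between 0.451 and 13.5 TPM with a median of 1.18, in Lung.hv.T39 at 197, and in resting control B cells between 18.2 and 39.9.

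Gbp3, Gbp4, Gbp9 and Gbp2b of the same family were parted too. The share of parted genes among all tested Gbp genes was not counted, so no shift of the whole family is read. Gbp3 measured 42.3 to 116 TPM in the subset of 7 (median 90.6) against 8.85 in Lung.hv.T1, 11.4 in Lung.co.T9, 7.98 in Lung.hv.T7 and 10.48 in PLN.co.T2, a difference of 2.83 ± 0.26. Gbp4 measured 1.95 to 47.3 TPM (median 7.93) against at most 1.33 in the subset of 4, and Gbp9 measured 4.49 to 30.7 TPM (median 11.3) against at most 4.26, with Lung.co.T9 just under the lowest of the 7. Gbp2b, Gbp3 and Gbp2 lie next to each other within chr3:142496934-142638008, and Gbp9 and Gbp4 within chr5:105078394-105139586. Reads shared by near-identical paralogs make the values of single Gbp genes uncertain. Of 24 tested genes in the interferon-response list, Gbp2 and Gbp3 were the parted ones, under both scalings. The list's median difference was 0.97, and 23 of 24 differences were positive. Over all 12044 genes 3.01% were parted, 8599 differences were positive and the median was 0.27.

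The RefSeq promoters of the leading pair (GRCm38.p6, plus strand, 250 bases before to 50 bases after the gene start) are shown because both hold a repeat of the kind that interferon-activated factors recognise. Capitals mark matches to GAAA, any 2 bases and GAAA again, searched on both strands. Both promoters carry it on the opposite strand, so that it reads TTTC, and in Gbp3 there are 2 overlapping matches.
Gbp2, chr3:142620413-142620712: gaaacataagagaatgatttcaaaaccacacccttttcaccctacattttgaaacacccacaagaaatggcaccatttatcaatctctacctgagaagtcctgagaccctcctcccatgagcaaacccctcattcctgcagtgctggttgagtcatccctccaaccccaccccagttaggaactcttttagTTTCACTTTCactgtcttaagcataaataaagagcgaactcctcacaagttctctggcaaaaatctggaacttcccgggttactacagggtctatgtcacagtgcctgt
Gbp3, chr3:142559794-142560093: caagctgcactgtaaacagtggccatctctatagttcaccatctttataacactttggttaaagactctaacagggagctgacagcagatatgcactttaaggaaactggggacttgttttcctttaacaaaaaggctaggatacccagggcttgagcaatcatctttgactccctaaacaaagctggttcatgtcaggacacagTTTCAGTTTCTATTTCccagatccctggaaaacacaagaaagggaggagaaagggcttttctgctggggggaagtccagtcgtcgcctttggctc
The match in Gbp2 begins 59 bases before the RefSeq gene start, and those in Gbp3 begin 45 and 39 bases before theirs. The RefSeq start of Gbp2 lies downstream of the gene start given above, so its match falls just inside the gene as given there. The promoter of Gbp2b held 1 match, and no entry was at hand for Gbp4 and Gbp9. Of 16685 RefSeq promoters of this length 3.43% held the pattern, as did 3.32% of those of the genes tested here and 4.88% (12 of 246) of those of the parted genes higher in the subset of 7. A match is a stretch of letters, not a site of binding, and most promoters of parted genes lacked one.

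Parted genes with parted neighbours within 1 Mb formed 61 runs, and these included other gene families. The tested genes within each run were not counted, so nothing is read from the number of parted genes in a run. On chromosome 1, 10 parted genes lay within chr1:84963669-85645037, among them Sp110 and Sp140, interferon-inducible nuclear body proteins, and 8 predicted genes. Sp110 measured 151.8 to 372 TPM (median 249.6) in the subset of 7 against 98.4 in Lung.hv.T1, 50.02 in Lung.co.T9, 66.2 in Lung.hv.T7 and 101 in PLN.co.T2. The subsets were apart, with PLN.hv.T8 the lowest of the 7. Genes of this family can share reads, so their single values are uncertain. On chromosome 17, Tapbp, Tap2 and class I genes such as H2-T22 fell in 1 run across the histocompatibility complex (chr17:32924688-36859398).

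NF-kappaB pathway genes were higher in the subset of 7 in all 24 tested members of their list, against 8599 of 12044 genes in all. Their median difference was 1.36 against 0.27 over all genes. Of the 24, 6 (25%) were parted, against 3.01% of all genes. Bcl3, a nuclear IkB protein that works as a cofactor of NF-kappaB dimers (chr7:19808462-19822770), measured 6.69 TPM at the lowest, 17.2 at the median and 43.5 at the highest in the subset of 7. In the subset of 4 it measured 2.09 TPM in Lung.hv.T1, 0.564 in Lung.co.T9, 0.611 in Lung.hv.T7 and 3.93 in PLN.co.T2, a difference of 3.03 ± 0.54. Lung.hv.T14 and Lung.hv.T5 were again the low end of the 7. No cr lymphoma exceeded the highest library of the subset of 4 (0.0837 to 2.96 TPM), while Lung.hv.T39 had 42.4 TPM and resting B cells had 13.2 to 24.5.

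Nfkb2, which encodes the p100 precursor of the alternative pathway, measured 12.8 to 87.1 TPM (median 23.9) in the subset of 7 and 4.84 to 11.6 in the subset of 4. Lung.hv.T16 held the top value, and Lung.hv.T5, the lowest of the 7, lay close to Lung.hv.T1. Traf1, a signalling adaptor that is itself an NF-kappaB target, ranged from 2.83 TPM in Lung.hv.T5 and 3.05 in Lung.hv.T14 to 58.2 in Lung.hv.T16, against 0.731 to 2.36 in the subset of 4. Rel, a subunit, Nfkbiz, an atypical IkB protein, and Tnip1, an inhibitor of the pathway, were parted with differences of 1.10, 1.70 and 1.21. Map3k8, a kinase that links NF-kappaB p105 to the ERK pathway, measured 4.80 to 94.4 TPM (median 19.1) against 0.853 to 3.65. After median-of-ratios scaling Bcl3 alone of the list was still parted, and the list's median was 1.05.

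**Figure D2:**
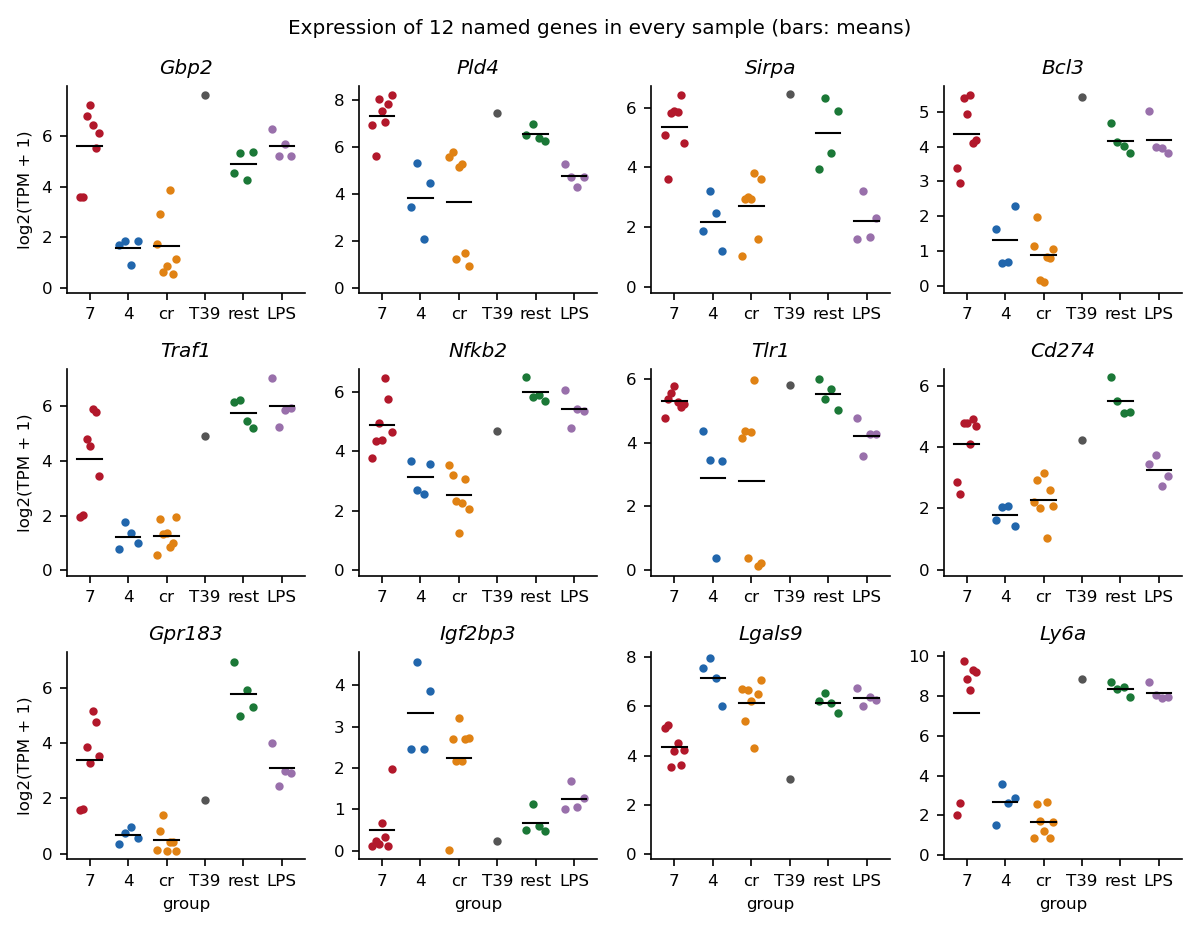
Each panel gives log2(TPM + 1) of 1 gene (vertical axis) in every sample, by group on the horizontal axis: the subset of 7, the subset of 4, cr lymphomas, Lung.hv.T39, resting (rest) and LPS-stimulated control B cells, with bars at the group means. Gbp2, Bcl3 and Gpr183 are low in the subset of 4 and in most cr lymphomas, Igf2bp3 and Lgals9 are low in the subset of 7, and Ly6a is high in the subset of 7 apart from Lung.hv.T5 and Lung.hv.T14.

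Signalling genes of the antigen receptor were next. In the B-cell receptor list 5 of 25 (20%) were parted, against 3.01% of all genes. The list's median difference was 0.78, against 0.27 over all genes. They included Lyn, the proximal kinase, Cd22, an inhibitory lectin, Malt1, a protease and scaffold on the way to NF-kappaB, and Nfatc1, a calcium-regulated transcription factor. Cd22 measured 274 to 475 TPM (median 356) in the subset of 7 against 228 in Lung.hv.T1, 149 in Lung.co.T9, 89.2 in Lung.hv.T7 and 116 in PLN.co.T2. Lyn measured 89.2 to 199 TPM (median 163) against 42.4 to 84.3. For Lyn, Lung.hv.T14 at the low end of the 7 lay just above Lung.hv.T7. None of the 5 was parted after median-of-ratios scaling.

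In the Toll-like receptor list 3 of 18 tested genes (16.7%) were parted, against 3.01% of all genes. Of the 18 differences 16 were positive, against 8599 of 12044 over all genes. The median difference was 1.12, against 0.27 over all genes. Tlr1, a Toll-like receptor for bacterial lipopeptides, measured 26.7 to 54.2 TPM (median 37.8) in the subset of 7. In the subset of 4 it was 19.5 TPM in Lung.hv.T1, 9.87 in Lung.co.T9, 0.274 in Lung.hv.T7 and 9.62 in PLN.co.T2. The subset of 7 was even, and the subset of 4 was spread widely by Lung.hv.T7. The neighbour Tlr6 and Unc93b1, the chaperone that brings nucleic-acid-sensing Toll-like receptors to endosomes, were parted with differences of 1.11 and 1.25. Unc93b1 only just met the rule, since Lung.hv.T5 and Lung.co.T9, both at 122 TPM, differed by 0.00051 on the log2 scale. Just outside it, Txndc16 and Lime1 differed by at least 1 in the mean but overlapped by 0.0013 and 0.0017.

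Tlr1 and Tlr6 lie in a run of 6 parted genes (chr5:64803523-67057159) with Klf3, a transcriptional repressor of the Krueppel-like family, and Rbm47, an RNA-binding protein. Klf3 measured 8.23 to 18.9 TPM (median 17.4) against 1.31 to 5.55. Rbm47 measured 1.18 TPM in Lung.hv.T5 and 1.37 in Lung.hv.T14 and 5.95 to 20.4 in the other five of the 7, against 0.415 to 0.485 in the subset of 4. Both were parted under both scalings.

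Pld4, an exonuclease of endolysosomes that degrades single-stranded nucleic acids, measured 48.3 to 298 TPM (median 183) in the subset of 7. In the subset of 4 it measured 9.74 TPM in Lung.hv.T1, 39.02 in Lung.co.T9, 3.21 in Lung.hv.T7 and 21.1 in PLN.co.T2, a difference of 3.49 ± 0.78. Lung.hv.T14 was the lowest of the 7 and lay near Lung.co.T9, and Pld4 was not parted after median-of-ratios scaling. Ahnak2, a large scaffold protein beside it, measured 1.99 to 122 TPM (median 4.11) against at most 0.791, with PLN.hv.T15 at 122 and Lung.co.T34 at 42.3, and stayed under 1 TPM in every control sample. Both lie within chr12:112760655-112802657, 486 and 452 kb from Igha at the end of the heavy chain locus. None of the 12 tested genes between Ahnak2 and Igha was parted, and their differences ran from -1.74 to 0.27.

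Surface receptors that guide or restrain B cells included several parted genes. Gpr183, the oxysterol receptor that positions B cells in follicles, measured 2.02 to 35.2 TPM (median 10.6) against 0.278 to 0.968. Lung.hv.T5 and Lung.hv.T14, both at 2.02 TPM, were the low end of the 7. Cd274, which encodes the checkpoint ligand PD-L1, measured 4.54 to 29.5 TPM (median 24.7) against 2.09 in Lung.hv.T1, 3.11 in Lung.co.T9, 3.27 in Lung.hv.T7 and 1.71 in PLN.co.T2, a difference of 2.29 ± 0.41. Btla and its ligand Tnfrsf14, an inhibitory pair, had differences of 1.44 and 1.03. In the checkpoint and costimulation list these were the 3 parted of 17 tested genes (17.6%, against 3.01% of all genes). The list's median difference was 1.44, against 0.27 over all genes, and none was parted after median-of-ratios scaling.

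Sirpa, the myeloid-cell receptor of the CD47 signal that inhibits phagocytosis, measured 11.2 to 84.97 TPM (median 55.2) in the subset of 7 against 1.30 to 8.20 in the subset of 4, without overlap. The 13 listed macrophage markers had a summed level of 147 to 673 TPM (median 175) against 31.6 to 268 (median 156), with overlap. All 10 that were tested had positive differences, as had 8599 of 12044 genes in all. Both tested markers of alveolar macrophages had negative ones (-0.18 and -0.12). Of the 10, Adgre1, the F4/80 antigen, was parted at 1.77 to 8.50 TPM against 0.419 to 1.34. The part of macrophages in these results was not tested. In such bulk samples fewer cells of a type and less RNA per cell cannot be told apart.

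Among genes used to define B-cell subsets, Notch2 and Cd9 of the marginal zone and B1 list were the parted 2 of 19 tested, and all 19 differences were positive. Notch2, the receptor that specifies marginal zone B cells, measured 23.9 to 51.3 TPM (median 46.0) in the subset of 7 against 23.1 in Lung.hv.T1, 12.1 in Lung.co.T9, 3.48 in Lung.hv.T7 and 21.0 in PLN.co.T2. PLN.hv.T8 was the lowest of the 7, close to Lung.hv.T1. In the follicular list Gpr183 and Btla were parted out of 20. In the germinal centre list Stap1, an adaptor of antigen receptor signalling, was parted out of 19. Pou2f2 and Bcl11a, transcription factors of the B lineage, were the parted 2 of 25, with differences of 1.38 and 1.43. Over all genes 3.01% were parted and 8599 of 12044 differences were positive. The share of the germinal centre list (5.26%) was near that of all genes.

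Antigen presentation was covered by a pair of lists. All 12 MHC class II genes had positive differences, with a median of 0.89, and none was parted. Cd74, the invariant chain, measured 1582 to 6761 TPM against 833 to 1808, with Lung.hv.T5 and Lung.hv.T14 within the range of the subset of 4. In the MHC class I list all 16 differences were positive, and Tap2 and Tapbp, which transport and edit peptides, were parted. Over all genes 8599 of 12044 differences were positive, with a median of 0.27, and 3.01% were parted. Tap2 measured 40.4 to 117 TPM (median 56.9) against 20.6 to 24.9 and was parted under both scalings.

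Survival and stress genes had single parted members. Mcl1, the anti-apoptotic BCL2 relative, measured 281 to 455 TPM (median 352) against 120 to 229 with a difference of 1.10, and was not parted after median-of-ratios scaling (difference 0.77). In the p53 pathway list Zmat3, an RNA-binding p53 target, and Sesn2, a stress-induced inhibitor of mTORC1, were the parted 2 of 22. That is 9.09%, against 3.01% of all genes. The list's median difference was 0.65, against 0.27 over all genes. After median-of-ratios scaling 1 of the 2 was still parted. Zmat3 measured 1.92 to 17.0 TPM (median 4.34) against 0.768 to 1.20, and its 2 highest values were those of Lung.hv.T16 and Lung.co.T34. Ier5, an immediate early gene, was the parted 1 of 24 in its list, whose median difference was 1.04. Il2rg, the common gamma chain of cytokine receptors, was the parted 1 of 22 receptor genes, at 49.1 to 186 TPM (median 91.6) against 26.5 to 46.9. The shares of these last lists, 4.17% and 4.55%, were near the 3.01% of all genes, and nothing is read from them.

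Metabolic genes were divided. Hk1, Pfkl and Slc16a3, a hexokinase, a phosphofructokinase subunit and the lactate exporter MCT4, were the parted 3 of 22 glycolysis and hypoxia genes. That is 13.6%, against 3.01% of all genes. Hk1 measured 7.78 to 25.4 TPM (median 16.6) against 2.93 in Lung.hv.T1, 1.71 in Lung.co.T9, 5.98 in Lung.hv.T7 and 1.42 in PLN.co.T2. The subsets were apart, with Lung.hv.T5 lowest of the 7. The list's median was 0.30 and changed sign to -0.03 after median-of-ratios scaling, so no direction is given for the list.

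Growth and division genes lay on the other side, with no parted member in TPM as deposited. MYC targets had a median difference of -0.26 with 27 of 30 negative, and ribosome biogenesis genes -0.12 with 22 of 30 negative. S-phase genes had a median of -0.45 with 26 of 30 negative, and G2 and M phase genes -0.17 with 26 of 30 negative. For oxidative phosphorylation the median was -0.18 with 22 of 25 negative. After median-of-ratios scaling these medians were -0.60, -0.46, -0.78, -0.51 and -0.52, and Rfc4, a subunit of the clamp loader of replication, was parted and higher in the subset of 4. The S-phase median was 0.01 when only libraries with joined sample names were used, and the G2 and M phase median was 0.0032 without PLN.hv.T15.

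Myc itself overlapped between the subsets. It measured 78.8 to 294 TPM (median 141) in the subset of 7 against 289 in Lung.hv.T1, 105 in Lung.co.T9, 147 in Lung.hv.T7 and 298 in PLN.co.T2. The lowest value was that of PLN.hv.T8, and the highest values of both subsets were alike.

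**Figure D3:**
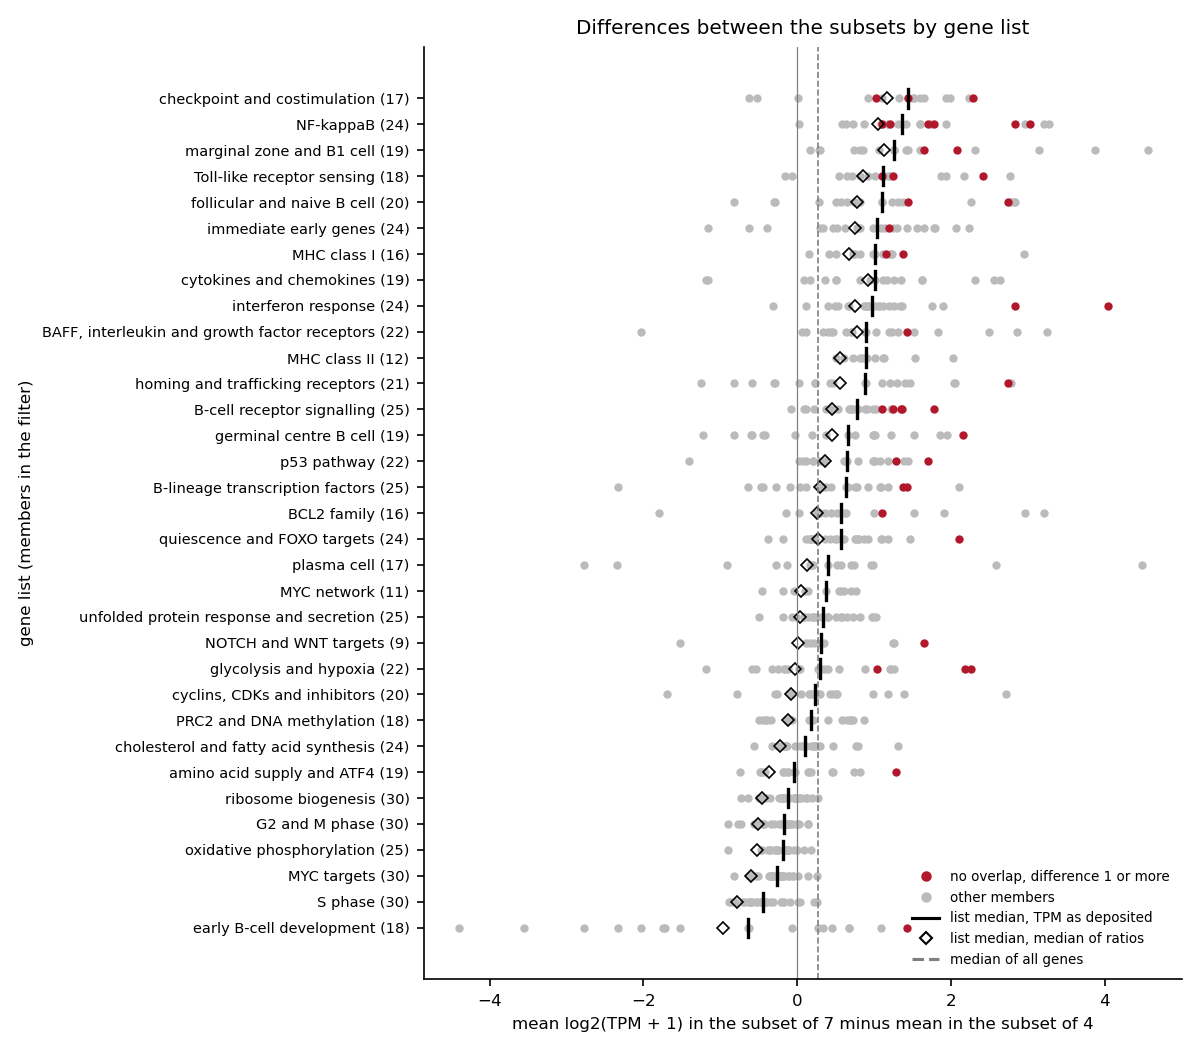
The difference of the subset means on the log2(TPM + 1) scale (horizontal axis) is drawn for each tested member of 33 gene lists (vertical axis), parted members in red, with black ticks at list medians, diamonds at list medians after median-of-ratios scaling and a dashed line at the median of all genes (0.27). The checkpoint list (1.44) and the NF-kappaB list (1.36) have the highest medians, and early B-cell development (-0.63) and S phase (-0.45) the lowest.

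The genes higher in the subset of 4 were few in TPM as deposited. The 57 parted this way after median-of-ratios scaling were led by Tifa (difference -3.35), and Bcat1 (-2.44) and histone genes such as Hist1h2ao were among them. As deposited Tifa was not parted, at 0.696 to 143 TPM in the subset of 7 against 117 to 168 in the subset of 4. Igf2bp3, a fetal RNA-binding protein found in progenitors and tumours (chr6:49085221-49214954), measured 0.0752 to 2.95 TPM (median 0.173) in the subset of 7. It measured 4.46 TPM in Lung.hv.T1, 22.7 in Lung.co.T9, 4.49 in Lung.hv.T7 and 13.5 in PLN.co.T2, a difference of -2.82 ± 0.59. PLN.hv.T8 was the highest of the 7 at 2.95, and the other six reached at most 0.588. In 6 of 7 cr lymphomas Igf2bp3 lay between 3.50 and 8.26 TPM, and in Lung.cr.T9 it was 0.00963.

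Lgals9, the secreted lectin galectin-9, measured 10.7 to 37.2 TPM (median 17.9) in the subset of 7 against 185 in Lung.hv.T1, 244 in Lung.co.T9, 140 in Lung.hv.T7 and 63.9 in PLN.co.T2, a difference of -2.80 ± 0.48. PLN.co.T2 was the lowest of the 4 and still above Lung.hv.T14, the highest of the 7. Its cr range was 18.7 to 131 TPM. Slco4a1, an organic anion transporter, and Bdh1, a mitochondrial enzyme of ketone metabolism, had differences of -2.11 and -1.92. The remaining genes of the 10 were Arrdc3, Txnrd3, Tmem108, Ddx25, Fam50b and Gm29397.

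Several known lymphoma genes cut across the split. Trp53 was at 1.43 TPM in Lung.hv.T14 and 0.552 in Lung.co.T30 of the subset of 7, and at 0.275 in Lung.hv.T1 and 0.192 in PLN.co.T2 of the subset of 4. The other five of the 7 measured 53.8 to 76.9 TPM, and Lung.co.T9 and Lung.hv.T7 measured 75.8 and 59.4. Low Trp53 was thus present in both subsets. Cdkn2a, the gene of p16 and ARF, was at 80.5 TPM or more in those low-Trp53 lymphomas, and also at 124 in Lung.hv.T5 and 84.4 in PLN.hv.T8. Mtap, its neighbour, was at 0.161 TPM in Lung.hv.T7 against 9.43 to 37.4 in the other ten of the 11.

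Early B-cell genes showed how uneven the subset of 7 was. Their median difference was -0.63 over 18 tested members with 11 negative, but it was 0.04 with hv lymphomas alone and 0.01 with the separated sample names alone. Vpreb3, which assists assembly of the immunoglobulin light chain, measured 493.1 TPM in Lung.hv.T5 and 387 in Lung.hv.T14, within the 251 to 618 of the subset of 4, and 0.529 to 20.6 in the other five of the 7. Ly6a, the Sca-1 antigen, showed the opposite pattern, at 312 to 854 TPM in the other five, 3.04 in Lung.hv.T5 and 5.22 in Lung.hv.T14, against 1.89 to 11.03 in the subset of 4. Il10, an immunosuppressive cytokine, measured 3.75 to 43.4 TPM in the other five, 0.161 in Lung.hv.T5 and 0.0909 in Lung.hv.T14, against 0.0378 to 0.520. These 3 genes were not parted, because Lung.hv.T5 and Lung.hv.T14 lay with the subset of 4.

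Each sample was placed between the subsets by its position, which for each of the 353 genes is the value minus the mean of the 4, divided by the mean of the 7 minus the mean of the 4. A position of 0 is the subset of 4 and 1 the subset of 7. The median position was 0.67 for Lung.hv.T14, 0.76 for PLN.hv.T8 and 0.80 for Lung.hv.T5, and 1.03 to 1.33 for the other four of the 7. It was -0.02 to 0.05 in the subset of 4. When each lymphoma was left out of choosing the genes and then placed, Lung.hv.T14 (0.41) and PLN.hv.T8 (0.39) lay nearer the subset of 4, and Lung.hv.T5 (0.70) nearer the subset of 7. The left-out positions of the 4 were 0.13 to 0.21.

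The cr lymphomas, which played no part in choosing the genes, lay with the subset of 4. Their median positions were 0.04 in Lung.cr.T9, 0.39 in Lung.cr.T16, -0.03 in Lung.cr.T14, -0.07 in MLN.cr.T1, 0.18 in MLN.cr.T35, -0.04 in MLN.cr.T6 and 0.02 in MLN.cr.T20. All 7 were under the midpoint of 0.5, and Lung.cr.T16 and MLN.cr.T35 were the highest. Lung.cr.T16 lay above the left-out positions of the 4 (0.13 to 0.21) and close to those of PLN.hv.T8 (0.39) and Lung.hv.T14 (0.41). In MLN.cr.T35 the predicted gene Gm20594 took 34.3% of TPM, against 15.7 to 22.9% in the other cr lymphomas. After median-of-ratios scaling, which leaves 118 genes, Lung.cr.T16 was at 0.44 and MLN.cr.T35 at 0.47.

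Single genes gave a finer order. In 106 of the 353 genes no cr lymphoma reached the lowest library of the subset of 7, and in 35 none exceeded the highest of the subset of 4, among them Bcl3, Nfkb2, Cd22 and Il2rg. In 13 genes 4 or more cr lymphomas reached the lowest of the 7, Notch2 among them, and in none did all 7. The same counts were not made over all tested genes, so these describe the 353 genes alone. Over the 10 genes higher in the subset of 4 the cr lymphomas spread from 0.14 in MLN.cr.T6 to 0.66 in Lung.cr.T9, on the scale where 1 is the mean of the 7. MLN.cr.T35 (0.58) and Lung.cr.T16 (0.50) were also at or past the midpoint there.

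**Figure D4:**
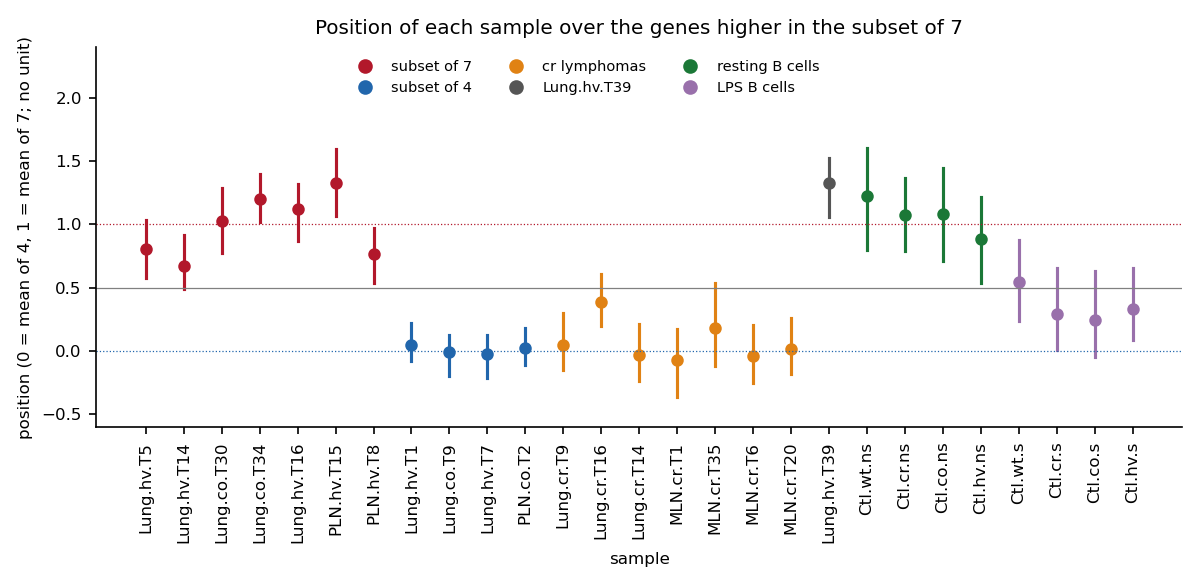
Position over the 353 genes (vertical axis, no unit; 0 is the mean of the subset of 4 and 1 that of the subset of 7) for each of the 27 samples (horizontal axis), with points at the median and lines from the lower to the upper quartile of genes. All 7 cr lymphomas lie under the grey midpoint line, Lung.hv.T39 is at 1.33 and resting B cells are between 0.89 and 1.23.

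Within the cr line, Lung.cr.T14, MLN.cr.T6 and MLN.cr.T20 shared a pattern with Lung.hv.T7 of the subset of 4, a grouping noticed after the values were seen. Tlr1 was 0.284, 0.0907 and 0.159 TPM in these 3 lymphomas and 0.274 in Lung.hv.T7, against 9.62 to 19.5 in the other three of the 4 and 16.7 to 61.7 in the other four cr lymphomas. Pld4 was 1.37, 1.80 and 0.938 TPM in them and 3.21 in Lung.hv.T7. Sdc1, the plasma cell antigen CD138, was 35.9, 17.6 and 46.4 TPM in them and 31.9 in Lung.hv.T7, and at most 5.79 in the other ten hv and co lymphomas of the split. Lung.hv.T7 had an r of 0.78 with MLN.cr.T20, 0.77 with Lung.cr.T14 and 0.68 with MLN.cr.T6.

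The site of a lymphoma could be tested within the cr line, apart from the split. Between 4 MLN and 3 lung cr lymphomas, limma with Benjamini-Hochberg adjustment called 0 genes higher (0%) and 1 lower (0.00936%) of 10681, with 219 genes at an unadjusted p under 0.05. The 1 gene was Xlr4b, named after its value was seen, and it was not called with a pseudocount of 0.1, without the filter, after median-of-ratios scaling or with any library left out. Of the 353 genes 263 were tested, and none was called in either direction. Site and the style of the sample names coincide in the cr line and cannot be told apart.

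Control B cells gave a separate measurement of the same genes. At rest their median positions were 0.89 to 1.23, within the range of the subset of 7, and after LPS they were 0.25 to 0.55. In limma with Benjamini-Hochberg adjustment over 4 LPS and 4 resting samples, 3026 of 11999 genes rose (25.2%) and 3955 fell (33.0%). Of the 353 genes 336 were tested, of which 235 fell (69.9%) and 10 rose (2.98%), with a median change of -1.01 against -0.16 over all genes tested. Of the 10 genes higher in the subset of 4, 7 were tested, of which 2 rose and 2 fell.

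Tlr1 fell from 46.6 ± 13.7 to 18.4 ± 6.27 TPM (SD, n = 4 each; log2 change -1.31 ± 0.27 SE, adjusted p = 0.00136, limma). Cd274 fell from 47.2 ± 20.3 to 8.80 ± 2.91 TPM (adjusted p = 6.83e-05, limma), and Pld4 from 93.6 ± 22.3 to 26.8 ± 8.06 TPM (adjusted p = 4.19e-05, limma). All were higher in the subset of 7. Bcl3, Traf1 and Gbp2, among the leading genes of the split, did not pass the test, with adjusted p-values by limma of 0.934, 0.594 and 0.0723. Bcl3 was 17.4 ± 4.92 TPM at rest and 18.5 ± 8.68 after LPS.

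Among the 10 that rose were the glycolysis genes Slc16a3, from 1.77 ± 0.614 to 46.2 ± 17.2 TPM, and Pfkl, from 21.1 ± 2.76 to 107 ± 28.7 TPM (adjusted p = 4.71e-07 and 4.16e-06, limma). Bdh1, higher in the subset of 4, rose from 7.81 ± 1.79 to 28.6 ± 4.46 TPM (adjusted p = 1.35e-05, limma). In resting controls erythroid markers summed to as much as 112521 TPM, which lowers the TPM of all other genes there, and the part of this in the change was not tested.

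**Figure D5:**
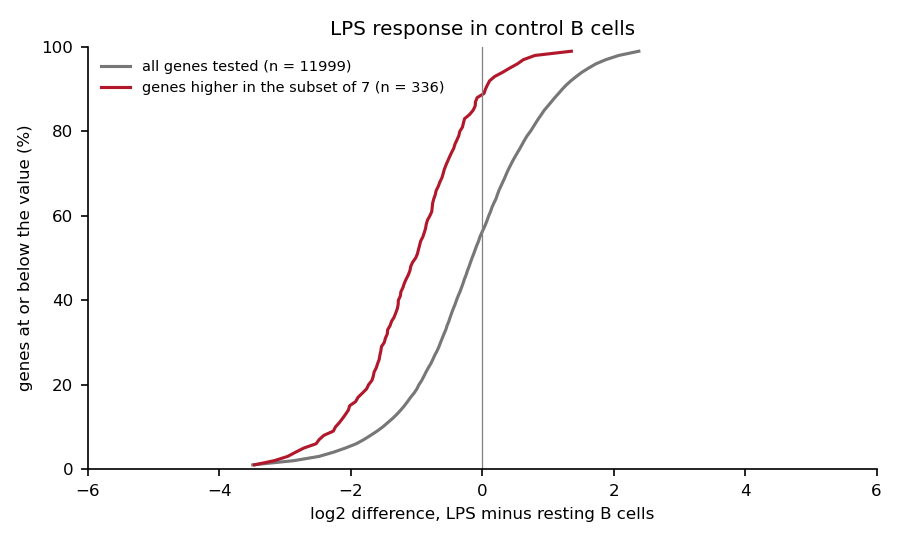
Cumulative distribution of the log2(TPM + 1) difference between LPS-stimulated and resting control B cells (horizontal axis) as the percentage of genes at or below each value (vertical axis), for all 11999 genes tested and for the 336 tested genes higher in the subset of 7. The second curve lies to the left, with a median of -1.01 against -0.16.

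Other properties of the libraries moved with the split. The number of genes at 1 TPM or more was 11318 to 12322 in the subset of 7 and 10634 to 10915 in the subset of 4, without overlap. Estimated depths overlapped, at 13.4 to 22.7 and 13.1 to 23.2 M read pairs. The summed level of 10 B-cell markers was 2795 to 3902 TPM in the subset of 7 and 1785 to 2315 in the subset of 4. Cd22 and Ptprc were the parted ones (20%, against 3.01% of all genes). The median difference of these markers was 0.51, against 0.27 over all genes. After median-of-ratios scaling it was 0.17, against -0.03 over all genes, and no B-cell marker was parted. T-cell markers summed to 4.50 to 142 against 3.21 to 42.6 TPM, neutrophil markers to 1.70 to 299.7 against 1.38 to 44.1, and fibroblast markers to 5.51 to 82.4 against 4.06 to 34.1, all overlapping and with no parted member. Their median sums were 28.8 against 17.4, 38.3 against 17.5 and 56.7 against 10.1 TPM. Positive differences were found in 8 of 10 tested T-cell, all 5 neutrophil and all 5 fibroblast markers. The median differences were 0.64, 0.76 and 1.16, against 0.27 over all genes. Lung epithelium markers summed to at most 7.67 TPM in any of the 11, with 6 of 10 under 1 TPM throughout. The part of these properties in the differences was not tested.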

How the data were processed

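RNA was depleted of ribosomal RNA and sequenced as stranded paired-end libraries, per the labels' protocols. The deposited table gives TPM per transcript and sample, made by the authors with kallisto 0.43 on mm10 (GRCm38) after FastQC, per the submitters' processing notes. The annotation and strand setting used by the authors are not stated in the labels. Deposited effective transcript lengths, in bases, served only to estimate depth. From TPM, the reads behind low values were estimated at 11.5 to 32.0 M read pairs per library, with 60.7 to 75.6% of low values whole within 0.02, so these depths are approximate and no count test was run.

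TPM were summed per gene and analysed as log2(TPM + 1) with Python 3.11.15, pandas 2.3.3 and numpy 2.4.6. A fold on this scale understates the change of low genes. The 11 lymphomas were assigned to subsets of 7 and 4 as given. Genes at 1 TPM or more in at least 4 samples were used. A gene was parted where the subsets did not overlap and the means differed by at least 1. limma 3.58.1 in R 4.3.3 (trend, robust, Benjamini-Hochberg, adjusted p under 0.05) compared LPS with resting B cells and MLN with lung cr lymphomas; it was tested on simulated data.

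Named genes were the 15 each way with the largest difference among non-overlapping genes with a mean of at least 5 TPM in the higher subset, leaving out variable segments, predicted genes and pseudogenes, together with 28 single genes, up to 4 members of each of 33 biology lists, and runs of parted genes within 1 Mb. Levels of 13 marker lists were summed for other cell types. The members, the lists and the single genes were chosen with earlier results of these data known. Alternatives were other pseudocounts (0.1 and 5), no filter, median-of-ratios scaling, removal of repeat, haemoglobin and immunoglobulin genes, a difference of at least 2, single lines, lung alone, either style of sample name (joined or separated words in the descriptions), each sample left out, and, added after seeing the data, Lung.hv.T5 and Lung.hv.T14 left out. Promoters were taken from RefSeq (GRCm38.p6), 1 per gene, leaving out chromosome 18. Figures were drawn with matplotlib 3.10.9.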

Additional observations from a re-analysis of the deposited data

Results flagged for a closer look

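In 174 tests of the named genes for a sample far from the rest of its group, 16 stood out by Dixon's criterion. Chance gives about 1 in 20 of such tests.

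In the subset of 7, Igf2bp3 was 2.949 TPM in PLN.hv.T8 against 0.07522 to 0.5881 in the others. Ccnd2, a G1 cyclin, was 0.2967 TPM in Lung.hv.T5 against 9.473 to 43.47. Id3, an inhibitor of E proteins, was 65.14 TPM in Lung.hv.T14 against 17.97 to 28.63. Bola3, which takes part in iron-sulfur cluster assembly, was 27.43 TPM in PLN.hv.T15 against 41.85 to 52.71.

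In the subset of 4, Lung.hv.T7 stood apart at 0.8374 TPM of Gbp2 against 2.231 to 2.614 and at 0.1612 TPM of Mtap against 24.96 to 26.03. Txnrd3, a thioredoxin reductase, was 16.62 TPM in Lung.co.T9 against 5.791 to 6.672. Ccr7, a homing receptor for lymph nodes, was 55.52 TPM in PLN.co.T2 against 24.87 to 28.12.

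In the cr lymphomas, Lung.cr.T9 had 10.83 TPM of Dglucy against 0.1583 to 0.8838 and 0.009629 TPM of Igf2bp3 against 3.501 to 8.258. Lung.cr.T16 had 0.4095 TPM of Trp53 against 41.8 to 84.51, 0.732 TPM of Cdkn2b against at most 0.1323, and 0.7465 TPM of Shtn1 against 0.03673 to 0.1215. MLN.cr.T35 had 3.947 TPM of Gbp4 against at most 0.515 and 17.77 TPM of Bola3 against 47.56 to 65.42. MLN.cr.T20 had 8.32 TPM of Ighg1 against at most 1.055.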

How the results depend on the processing

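The number of parted genes moved with most settings. Genes higher in the subset of 7 (353) and in the subset of 4 (10) numbered 180 and 4 with a pseudocount of 5, 118 and 57 after median-of-ratios scaling, 78 and 4 with a difference of at least 2, 615 and 47 in hv alone, 1301 and 186 in co alone, 1061 and 31 with joined and 950 and 330 with separated sample names, 727 and 14 in lung alone, and 783 and 124 without Lung.hv.T5 and Lung.hv.T14. Settings with fewer libraries make non-overlap easier. With a pseudocount of 0.1 they were 424 and 10, and without the filter 359 and 10. Leaving out 1 lymphoma gave 340 to 641 and 10 to 32, the lower counts without PLN.hv.T15 and the higher ones without PLN.hv.T8 and Lung.hv.T7; the 10 became 28 without Lung.hv.T5, 27 without Lung.hv.T14, 26 without Lung.co.T9 and 18 without Lung.hv.T1. The median cr position ranged from -0.0004 to 0.18 with 1 lymphoma left out.

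With 5000 genes the mean r was 0.780 within the 7, 0.829 within the 4 and 0.751 between; the cause was not tested. For MLN against lung, 0 genes were lower with a pseudocount of 0.1, 0 without the filter and 0 after median-of-ratios scaling, and 0 to 0 with 1 sample left out. For LPS, leaving out 1 sample gave 2531 to 3374 genes higher and 3058 to 4010 lower, of the parted genes 8 to 13 and 210 to 236, and 16 parted genes were higher after median-of-ratios scaling. With the genotype label as a replicate block the LPS counts were 3088 and 4162, of the parted genes 13 and 245. No paired analysis was possible because the subsets were compared without a test and the numbers in the lymphoma names only name them, for the split and for MLN against lung.

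Of 3041 recomputed differences of 135 named genes 2960 stayed within the spread between libraries, 81 moved, and 18 genes changed sign in some setting. Of 33 list medians 8 changed sign in some setting. Depth limits values under 1 TPM most.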

Other observations

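Lung.hv.T39, whose labels disagree on its line, had the profile of the subset of 7. Its median position was 1.33, and 344 of the 353 genes reached the lowest library of the 7. Gbp2 was 197 TPM, Bcl3 42.4, Ly6a 454 and Il10 26.1, while Lgals9 was 7.37 and Igf2bp3 0.185. It was most like Lung.co.T34 (r = 0.81). Its Mtap was 0.617 TPM, under the 9.43 of the lowest library of the 7.

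Most of the 353 genes were detected in the samples of non-malignant control B cells, of which all but wt are labelled c-myc Igh transgenic. In 270 of them all 4 resting samples reached the lowest library of the 7, and in 88 all 4 LPS samples did. The same counts were not made over all tested genes. Macrophage markers summed to 343 to 1292 TPM in resting samples, against 147 to 673 in the subset of 7. The part of other cells in these counts was not tested. In 7 of the 353 genes all 8 controls were under 1 TPM. Among these were Ahnak2, Ephb4, an ephrin receptor, Folr2, a folate receptor of macrophages, and Limch1, a regulator of non-muscle myosin. The lambda constant gene Iglc2 made up 7.83 to 28.4% of Iglc2 and Igkc together in the subset of 7 and 1.88 to 13.2% in the subset of 4, with overlap.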
